A study of Mus musculus with 8 samples.

Results

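The replication histone genes of mouse encode the H1, H2A, H2B, H3 and H4 proteins that package newly made DNA. Members were the genes whose symbol starts with Hist1h, Hist2h, Hist3h or Hist4h in the deposited tables, without the testis genes Hist1h1t, Hist1h2ba and Hist1h2aa. The rule used symbols alone and no measured value. It found 64 members of 21949 genes, namely 5 for H1, 17 for H2A, 17 for H2B, 12 for H3 and 13 for H4. Each gene was represented by its transcript with the highest mean count, since several members have more than 1 transcript in the tables.

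Libraries of total RNA and of ribosome footprints (RPF, pieces of mRNA covered by ribosomes) were made from testes of C57BL/6 mice 24 days after birth. The mice were Miwi-null (null) or wild type (WT), and the allele is not given in the sources used here. MIWI, the product of Piwil1, is a PIWI protein of meiotic and postmeiotic male germ cells that binds piRNAs. There were 8 libraries, 2 for each genotype and assay, and nothing in the labels says whether the 2 came from separate animals, so p-values reflect only how these libraries vary, which may be technical. Gene totals were 12721796 and 11130957 counts in null RNA, 15592795 and 13874634 in WT RNA, 11662661 and 28334620 in null RPF, and 28054418 and 17735637 in WT RPF. Levels are CPM, counts relative to the scaled library size. Piwil1 itself had 3.52 and 2.27 CPM in null RNA, against 552 and 533 CPM in WT RNA, and 3.30 and 3.26 CPM in null RPF, against 482 and 390 CPM in WT RPF, so each library carried the level its genotype label calls for.

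Replication histone genes are switched on in S phase, when the cell doubles its DNA and needs new nucleosomes. Their mRNAs carry no poly(A) tail in dividing cells and end in a stem-loop that SLBP, the stem-loop binding protein, holds during processing and translation, and they are degraded when replication stops. In the testis, DNA is replicated in dividing spermatogonia and once more just before meiosis, and later germ cells add testis histones before protamines take over. H2A and H2B genes often stand head to head and share a promoter. Several members encode the same protein from nearly the same sequence. How multiply mapping fragments were treated is not given in the sources used here, so a value of a single copy is uncertain, and sums over each histone type were compared first.

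Of the 64 members, 63 matched a single RefSeq gene on GRCm38.p6. Of these, 50 lie on chromosome 13, 10 on chromosome 3, 2 on chromosome 11 and 1 on chromosome 6. The chromosome 13 genes form 1 block of 22 members between 21715711 and 22043658 and another of 28 members between 23531044 and 23764412. The upstream stretches of 4 members are shown, and the part of these sequences in any RNA change was not tested. Hist1h1a, Hist2h2aa2 and Hist1h4k had the highest CPM of their types averaged over the 8 libraries, and Hist1h2bm had the highest among H2B members with an octamer in the stretch. Each stretch holds the 120 bases before the RefSeq start on the gene's strand, and capitals mark a TATA box, a CCAAT box, an octamer or an H1 box, whose letters are spelled out below, on either strand. The stretch of Hist1h1a is chr13:23763548-23763667 on the plus strand, that of Hist2h2aa2 is chr3:96240375-96240494 on the minus strand, that of Hist1h2bm is chr13:21721924-21722043 on the plus strand and that of Hist1h4k is chr13:21750554-21750673 on the minus strand.
Hist1h1a: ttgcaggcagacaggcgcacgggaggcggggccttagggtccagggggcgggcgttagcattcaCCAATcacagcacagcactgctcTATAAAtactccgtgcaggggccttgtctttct
Hist2h2aa2: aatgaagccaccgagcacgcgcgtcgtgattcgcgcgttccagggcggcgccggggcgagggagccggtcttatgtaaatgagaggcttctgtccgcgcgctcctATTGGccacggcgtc
Hist1h2bm: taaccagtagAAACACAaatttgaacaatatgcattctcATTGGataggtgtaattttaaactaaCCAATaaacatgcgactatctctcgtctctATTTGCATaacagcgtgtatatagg
Hist1h4k: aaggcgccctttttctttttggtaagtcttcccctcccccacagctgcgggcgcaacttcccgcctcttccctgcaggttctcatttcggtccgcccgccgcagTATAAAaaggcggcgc

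A promoter window was given by RefSeq for 58 members. In the 250 bases before the start, on either strand, the CCAAT box (letters CCAAT) was found in 81.0% of members and in 34.5% of the 27025 promoters of the whole table. All H1, H2A and H2B windows held it, against 8 of 10 for H3 and 3 of 12 for H4. The octamer (letters ATTTGCAT) was found in 6 of 16 H2A and 5 of 15 H2B windows and in no other member, which made 19.0% of members and 1.61% of all promoters. The TATA box (letters TATAAA) stood in 46.6% of members and 13.0% of all promoters. The H1 box (letters AAACACA) stood in 4 of 5 H1 windows, 1 H2A window and 1 H2B window, in 10.3% of members and 6.22% of all promoters. The motifs overlap with no other motif of the 4 in the stretches shown. Shared windows of paired H2A and H2B genes were counted once for each gene, and a match says only that the letters are there.

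Replication histone RNA was lower in null testes in every histone type. The summed level of all members was 2196 and 2229 CPM in null RNA, against 4971 and 4955 CPM in WT RNA, so the null level was 44.6% of WT. Both null libraries lay below both WT libraries for each of the 5 types, and the gap exceeded the spread between replicates. No p-value is given for a sum over members.

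**Figure D1:**
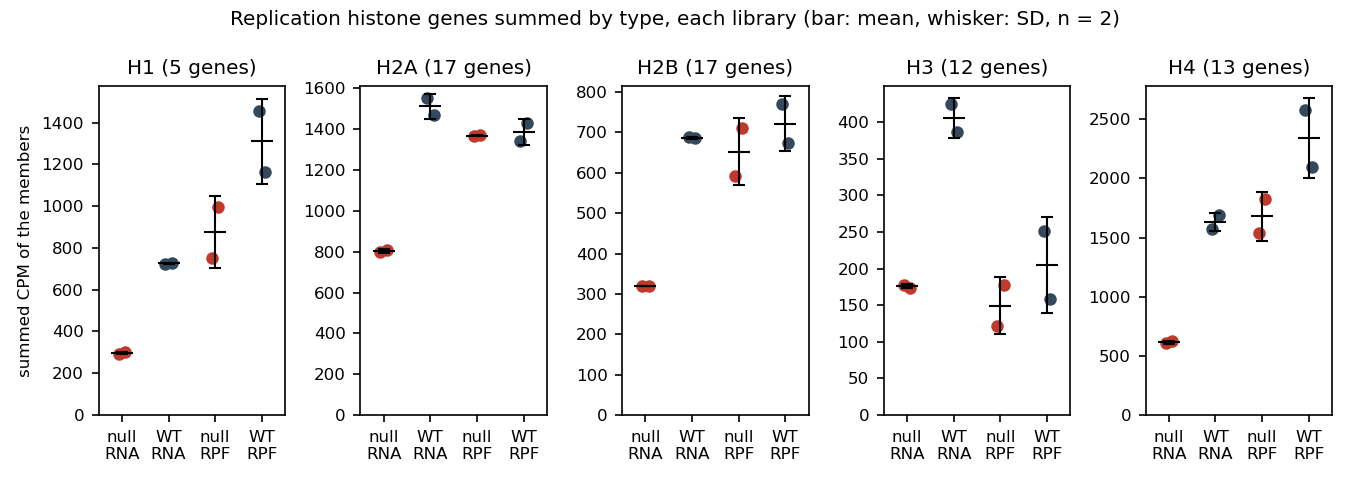
Summed CPM of the members of each histone type (y axis) in every library, with null left of WT for RNA and for RPF. Points are libraries, bars are means and whiskers SD (n = 2). In RNA the null points lie far below the WT points in all 5 panels, while in RPF they overlap for H2A, H2B and H3.

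Linker histone H1 sits where DNA enters and leaves the nucleosome, and its 5 members summed to 292 and 301 CPM in null RNA, against 725 and 727 CPM in WT RNA (null over WT log2 ratio of means −1.29). H4, which pairs with H3 in the nucleosome core, summed to 608 and 626 CPM in null RNA, against 1576 and 1687 CPM in WT RNA (log2 ratio −1.40). H3 summed to 178 and 174 CPM in null RNA, against 425 and 386 CPM in WT RNA (log2 ratio −1.20). These types were at 40.8%, 37.8% and 43.4% of WT.

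H2B summed to 320 and 319 CPM in null RNA, against 689 and 685 CPM in WT RNA (log2 ratio −1.10). H2A summed to 797 and 809 CPM in null RNA, against 1555 and 1469 CPM in WT RNA (log2 ratio −0.91), or 53.1% of WT. Single genes carried much of some sums. Hist2h2aa2 alone gave 50.4% of the H2A sum in WT RNA. Hist1h1a gave 62.5% of the H1 sum in WT RNA and 68.5% in WT RPF. Hist1h4k gave 6.74% of the H4 sum in WT RNA but 45.0% in WT RPF. Without the member of highest mean CPM in each type, the H2A log2 ratio was −1.04.

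Gene by gene, the RNA of 54 of the 64 members fell in null testes and that of none rose (edgeR quasi-likelihood test with Benjamini-Hochberg adjustment over 16051 genes, adjusted p under 0.05). Across all genes tested 20.8% fell and 16.5% rose. All 64 members passed the filter on low counts. Each gene had 1 estimate of spread over its RNA and RPF libraries. The SE and p-value of an RNA change therefore also carry the spread of the RPF libraries, and the reverse. The median member change was −1.32 on the log2 scale, 2.49-fold lower, against a median of −0.07 over all genes. By type, 5 of 5 H1, 16 of 17 H2A, 11 of 17 H2B, 10 of 12 H3 and 12 of 13 H4 members fell, with medians of −1.34, −1.43, −1.30, −1.26 and −1.36. No member rose at an unadjusted p under 0.05 either (0 by edgeR and 0 by DESeq2). Both null libraries were below both WT libraries in 63 of 64 members, against 43.1% of all genes. The exception, Hist2h4, had 3.06 and 4.10 CPM in null RNA, against 3.16 and 6.03 CPM in WT RNA.

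Without one of the 4 RNA libraries at a time, between 37 and 40 members fell. In the same fits 10 H2A members fell whichever RNA library was left out, and 4 or 5 H3 members fell without null RNA library 1, null RNA library 2 or WT RNA library 1. In fits that each left out 1 of the 8 libraries, 36 of the 54 calls held throughout.

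**Figure D2:**
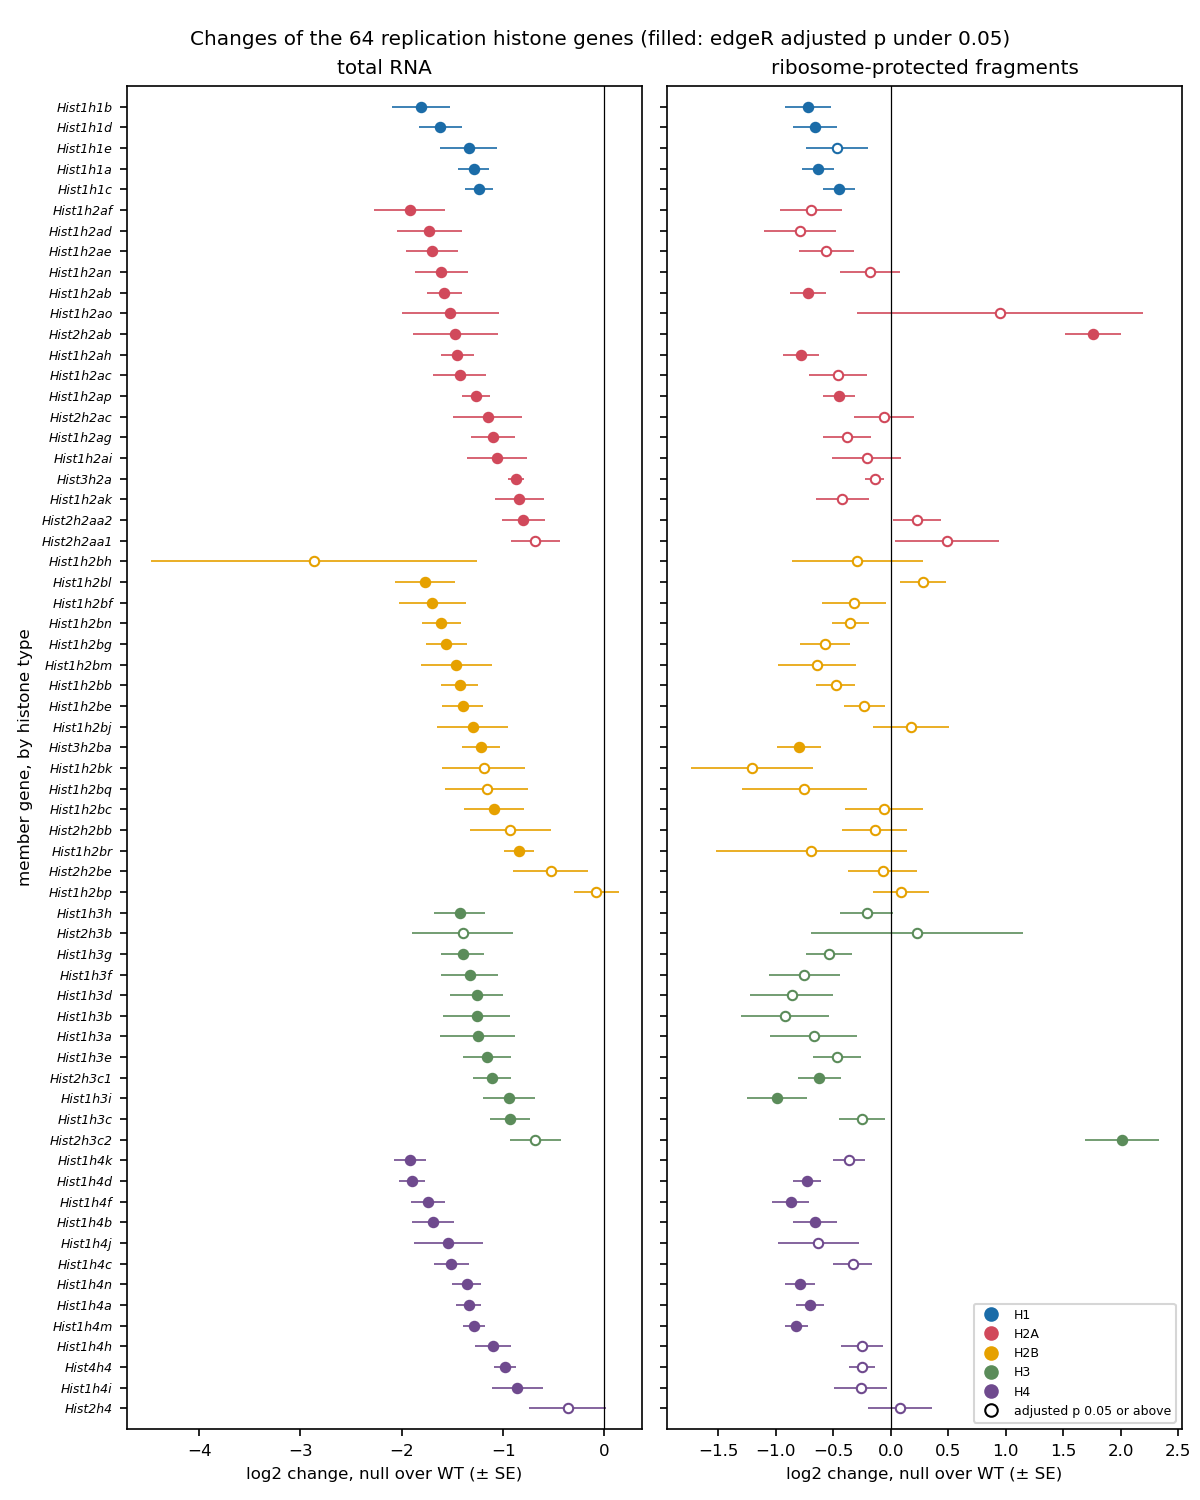
Log2 change, null over WT (x axis), of each of the 64 members in RNA and in RPF, grouped by histone type. Points are edgeR estimates with their SE, and filled points have an adjusted p under 0.05. RNA estimates are all left of 0, from −2.87 to −0.08, whereas RPF estimates straddle 0.

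Among linker histones, Hist1h1a (ENSMUSG00000049539.3) had 184 and 187 CPM in null RNA, against 451 and 457 CPM in WT RNA. It fell by 1.29 ± 0.15 (SE) on the log2 scale (edgeR adjusted p = 0.000295). Hist1h1c (ENSMUSG00000036181.2) had 79.3 and 84.7 CPM in null RNA, against 198 and 189 CPM in WT RNA, and fell by 1.24 ± 0.14 (edgeR adjusted p = 0.000319). For both genes the groups were far apart and the replicates close together. These 2 genes are the most abundant H1 members here, and Hist1h1a encodes an H1 subtype known to be prominent in testis.

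Hist1h4k, Hist1h4d and the H2A gene Hist1h2af had the largest called decreases in RNA. Hist1h4k (ENSMUSG00000064288.4) had 28.2 and 30.0 CPM in null RNA, against 102 and 118 CPM in WT RNA, and fell by 1.92 ± 0.16 on the log2 scale (edgeR adjusted p = 4.91e-05). Hist1h4d (ENSMUSG00000061482.7) had 19.9 and 20.0 CPM in null RNA, against 76.4 and 72.9 CPM in WT RNA, and fell by 1.90 ± 0.13 (edgeR adjusted p = 1.61e-05). In both genes the null libraries lay far below the WT libraries. Hist1h4m (ENSMUSG00000069306.5) had 115 and 121 CPM in null RNA, against 270 and 305 CPM in WT RNA (log2 change −1.29 ± 0.11, edgeR adjusted p = 5.21e-05).

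The H2A members spanned a wide range of levels. Hist2h2aa2 (ENSMUSG00000063954.7), the most abundant, had 434 and 442 CPM in null RNA, against 787 and 738 CPM in WT RNA, and fell by 0.80 ± 0.21 on the log2 scale (edgeR adjusted p = 0.0196). This call was lost without any one of the 4 RNA libraries, with adjusted p of 0.0738 to 0.111. Hist3h2a (ENSMUSG00000078851.4), on chromosome 11, had 221 and 214 CPM in null RNA, against 391 and 401 CPM in WT RNA (log2 change −0.87 ± 0.08, edgeR adjusted p = 9.98e-05). Hist1h2af (ENSMUSG00000061991.2) was scarce, with 0.766 and 0.523 CPM in null RNA, against 2.08 and 2.90 CPM in WT RNA, and fell by 1.92 ± 0.35 (edgeR adjusted p = 0.00303). All 3 genes had both null libraries below both WT libraries, as did 43.1% of all genes. Hist1h2af was named for the size of its decrease, so it does not stand for scarce members in general.

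Among H2B members, Hist1h2bm (ENSMUSG00000114279.1) had 43.7 and 42.6 CPM in null RNA, against 122 and 116 CPM in WT RNA, and fell by 1.46 ± 0.35 on the log2 scale (edgeR adjusted p = 0.0126). That call was lost without any one of the 4 RNA libraries, with adjusted p of 0.0538 to 0.0749. Hist1h2bl (ENSMUSG00000094338.1) had 2.37 and 2.79 CPM in null RNA, against 9.07 and 8.49 CPM in WT RNA (log2 change −1.77 ± 0.30, edgeR adjusted p = 0.00236). H2B also held the member nearest to 0, named after its values were seen. Hist1h2bp had 71.3 and 68.3 CPM in null RNA, against 74.2 and 73.2 CPM in WT RNA (log2 change −0.08 ± 0.22, edgeR adjusted p = 0.814). Its sign changed to 0.02 without TMM scaling and to 0.25 with the length trend removed. A shorter transcript of Hist1h2bp had 32.2 and 30.9 CPM in null RNA, against 42.8 and 45.2 CPM in WT RNA. The lowest estimate, −2.87 ± 1.61 for Hist1h2bh, rested on 3 and 3 counts in null RNA, against 25 and 27 counts in WT RNA, and did not pass the test (edgeR adjusted p = 0.196).

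For H3, Hist2h3c1 (ENSMUSG00000093769.4) had 41.0 and 38.8 CPM in null RNA, against 92.8 and 80.0 CPM in WT RNA, and fell by 1.11 ± 0.19 on the log2 scale (edgeR adjusted p = 0.0023). Hist1h3h (ENSMUSG00000101355.1) had 21.8 and 21.2 CPM in null RNA, against 57.8 and 58.4 CPM in WT RNA, and fell by 1.43 ± 0.25 (edgeR adjusted p = 0.00255). Neither gene overlapped between genotypes. The 10 members that did not pass the RNA test included 6 H2B genes, Hist2h2aa1, Hist2h3b, Hist2h3c2 and Hist2h4.

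By position, 27 of 28 members in the chromosome 13 block near 24 Mb fell in RNA, with a median log2 change of −1.41. In the block near 22 Mb 19 of 22 fell, with a median of −1.33. On chromosome 3, 4 of 10 fell, with a median of −0.87. Across all genes tested 20.8% fell. The difference between blocks was not tested. Among members with a strand in RefSeq's promoter table, 8 head to head H2A and H2B pairs were found, on chromosome 13, with 163 to 248 bases between the genes. No strand was at hand for 5 placed members, among them Hist2h2be, 191 bases from Hist2h2ac on chromosome 3, and Hist1h2bc, 239 bases from Hist1h2ac on chromosome 13. Partners had unlike RNA changes in some pairs, as in Hist1h2an at −1.61 beside Hist1h2bp at −0.08, and like changes in others, as in Hist1h2bf at −1.70 beside Hist1h2ad at −1.73.

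In bulk testis, fewer cells of a type and less RNA per cell cannot be told apart. Spermatogonia markers were also lower in null RNA, with 6 of 12 called lower, and between 4 and 6 without each library in turn. Their summed level was 545 and 551 CPM in null RNA, against 810 and 695 CPM in WT RNA. Dmrtb1 alone gave 369 and 371 CPM of it in null RNA, and 560 and 458 CPM in WT RNA. Of the 12 estimates, 10 were below 0 and 2 above. Meiotic prophase markers had 4 of 8 higher and summed to 880 and 855 CPM in null RNA, against 452 and 529 CPM in WT RNA. Sycp2 alone gave 466 and 454 CPM of that sum in null RNA, and 163 and 194 CPM in WT RNA. Of the 8 estimates, 6 were above 0 and 2 below. All 7 late spermatid markers were lower, and they summed to 1418 and 1409 CPM in null RNA, against 13752 and 13582 CPM in WT RNA. Of the Sertoli markers 5 of 8 were lower, and they summed to 213 and 209 CPM in null RNA, against 389 and 406 CPM in WT RNA. Of the other lists outside the germ line, 5 of 5 peritubular myoid, 4 of 5 erythroid, 1 of 5 macrophage, 1 of 4 endothelial and 1 of 6 Leydig markers were lower, and 2 macrophage and 3 Leydig markers were higher. Across all genes tested 20.8% were lower and 16.5% higher in RNA, and the macrophage, endothelial and Leydig markers called lower were near that share. The Leydig sum was 2218 and 2227 CPM in null RNA, against 1159 and 1148 CPM in WT RNA, and the erythroid sum 47.4 and 45.3 CPM in null RNA, against 82.9 and 70.9 CPM in WT RNA. No marker of these lists was at 0 in any library, and the part of cell makeup in the histone result was not tested.

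Coding length moved with the RNA change as well. Members had coding lengths of 309 to 669 bases, and over all genes the trend of the RNA change was −0.344 on the log2 scale at 400 bases and −0.0461 at 1500 bases. The mean insert size was 287.6 and 284 bases in null RNA libraries, against 266 and 244.5 bases in WT RNA libraries. With the length trend removed, 42 of the 64 members fell and the median member change was −0.97. The part of insert size was not tested.

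Ribosome footprints on the histone mRNAs were closer between genotypes than the RNA. All members summed to 4370 and 5081 CPM in null RPF, against 6394 and 5529 CPM in WT RPF, which put null at 79.3% of WT. H1 and H4 were lower in both null libraries. H1 summed to 753 and 996 CPM in null RPF, against 1454 and 1165 CPM in WT RPF (log2 ratio −0.58). H4 summed to 1535 and 1827 CPM in null RPF, against 2579 and 2100 CPM in WT RPF (log2 ratio −0.48).

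For the other types the libraries of the genotypes overlapped. H2A summed to 1366 and 1370 CPM in null RPF, against 1340 and 1431 CPM in WT RPF. H2B summed to 593 and 711 CPM in null RPF, against 771 and 673 CPM in WT RPF. H3 summed to 122 and 177 CPM in null RPF, against 251 and 159 CPM in WT RPF. The log2 ratios of these 3 types were −0.02, −0.15 and −0.46, within the spread of the libraries, and the H2A ratio became 0.03 without WT RPF library 2.

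By the test for each gene, footprints of 16 members fell and those of 2 rose in null testes (edgeR, adjusted p under 0.05). Across all genes tested 13.3% fell and 12.0% rose. In this fit the share of members that fell, 16 of 64, was above the share of all genes and far below that in RNA. With each assay fitted alone 6 members fell, and the share of all genes in that fit is not given here. The median member change was −0.45 on the log2 scale, against −0.005 over all genes. By type 4 of 5 H1, 3 of 17 H2A, 1 of 17 H2B, 2 of 12 H3 and 6 of 13 H4 members fell. Both null libraries lay below both WT libraries in 27 members and above them in 2, against 29.3% and 28.3% of all genes.

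Without any one RNA library, footprint estimates such as −0.45 for Hist1h1c and −0.62 for Hist2h3c1 stayed the same. Their p-values moved through the spread shared by both assays. The footprint count depended on the library left out. It was 36 without WT RPF library 2, 6 without null RPF library 1, and 10 without WT RPF library 1, WT RNA library 1 or WT RNA library 2. Across these fits the count ran from 0 to 9 for H3 and from 0 to 8 for H2B. The shares of all genes that fell in these fits are not given here. The median member change was −0.12 without WT RPF library 1. In 44 members WT RPF library 1 was above WT RPF library 2 and null RPF library 2 was above null RPF library 1, an order seen in 38.0% of all genes. Spermatogonia markers summed to 617 and 557 CPM in null RPF, against 592 and 672 CPM in WT RPF, and overlapped between genotypes. The 2 libraries that were higher in these members were also the deeper ones, and the part of depth was not tested.

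Footprint decreases that held without each library in turn were all in H4, namely those of Hist1h4a, Hist1h4d, Hist1h4f, Hist1h4m and Hist1h4n. Hist1h4m had 310 and 314 CPM in null RPF, against 585 and 512 CPM in WT RPF, and fell by 0.82 ± 0.10 on the log2 scale (edgeR adjusted p = 0.000598). Hist1h4f (ENSMUSG00000069274.3) had 15.8 and 15.8 CPM in null RPF, against 30.5 and 27.4 CPM in WT RPF, and fell by 0.87 ± 0.16 (edgeR adjusted p = 0.0044). Its RNA fell by 1.74 ± 0.17, with 8.58 and 9.50 CPM in null RNA, against 25.6 and 34.8 CPM in WT RNA (edgeR adjusted p = 0.000141). In these H4 genes RNA and footprints were both lower, and neither assay overlapped between genotypes.

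Hist1h1a had 500 and 657 CPM in null RPF, against 993 and 801 CPM in WT RPF, and fell by 0.63 ± 0.14 on the log2 scale (edgeR adjusted p = 0.0132). The call was lost without null RPF library 1 or WT RPF library 1, with adjusted p of 0.0571 and 0.0549. Hist1h3i (ENSMUSG00000101972.1) had 1.34 and 2.36 CPM in null RPF, against 4.52 and 3.29 CPM in WT RPF, and fell by 0.99 ± 0.26 (edgeR adjusted p = 0.0259). Its call was lost without WT RNA library 1, WT RNA library 2, null RPF library 1 or WT RPF library 1, with adjusted p of 0.0555 to 0.151. Both genes lay lower in both null libraries. Hist1h1c had 197 and 252 CPM in null RPF, against 338 and 276 CPM in WT RPF, and fell by 0.45 ± 0.14 (edgeR adjusted p = 0.0459), and Hist2h3c1 fell by 0.62 ± 0.19 (edgeR adjusted p = 0.0429). These last 2 calls were each lost without any one RNA library, null RPF library 1 or WT RPF library 1, with adjusted p of 0.0756 to 0.226.

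Both members with more footprints in null testes lie within the chromosome 3 group. Hist2h2ab (ENSMUSG00000063689.4), an H2A gene at chromosome 3, 96219885 to 96220354, had 36.1 and 62.9 CPM in null RPF, against 16.2 and 13.0 CPM in WT RPF. It rose by 1.76 ± 0.24 on the log2 scale (edgeR adjusted p = 0.00102), while its RNA had 1.38 and 1.13 CPM in null, against 3.22 and 3.80 CPM in WT. That RNA decrease of 1.47 ± 0.42 (edgeR adjusted p = 0.0245) was lost without any one of the 4 RNA libraries, with adjusted p of 0.0732 to 0.113. Hist2h2ab was therefore lower in RNA and higher in footprints in both null libraries.

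Hist2h3c2 (ENSMUSG00000081058.5), an H3 gene at chromosome 3, 96238479 to 96239127, had 3.84 and 2.5 CPM in null RPF, against 0.781 and 0.681 CPM in WT RPF. It rose by 2.01 ± 0.32 on the log2 scale (edgeR adjusted p = 0.00237). Its RNA had 5.36 and 4.53 CPM in null, against 9.27 and 6.63 CPM in WT (log2 change −0.68 ± 0.25, edgeR adjusted p = 0.0616), and passed the test without null RPF library 1 or WT RPF library 2. The groups did not overlap in either assay. Both footprint increases held without each library in turn.

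**Figure D3:**
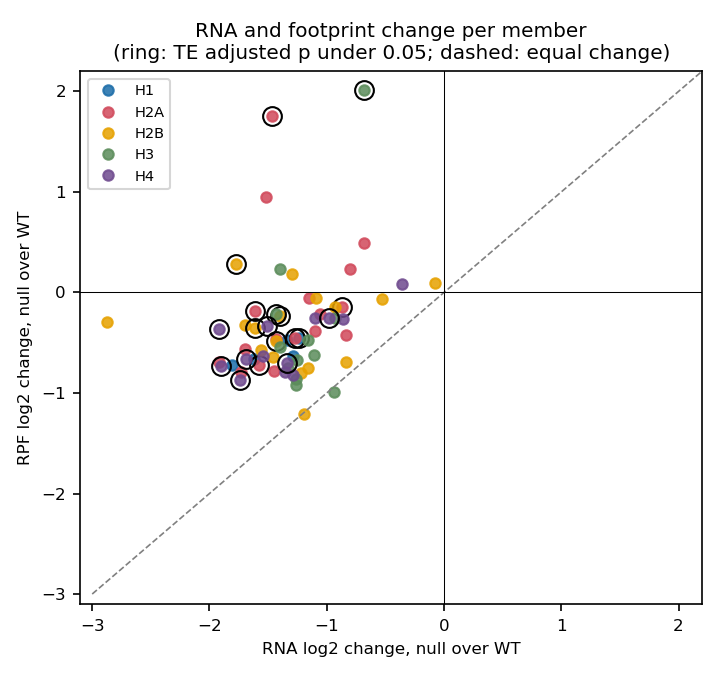
RNA change (x axis) and RPF change (y axis) of each member, both log2 null over WT, coloured by histone type. The dashed line marks equal change and rings mark a TE change with an adjusted p under 0.05. Of the 64 points 62 lie above the line, and Hist2h2ab and Hist2h3c2 stand highest.

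Translational efficiency (TE) is the footprint level relative to the RNA level, and its change was tested as the interaction of genotype and assay. TE rose in 19 members and fell in none (edgeR, adjusted p under 0.05), against 7.36% and 7.56% of all genes. The median member change was 0.86 on the log2 scale, or 1.82-fold, against 0.04 over all genes. By type TE rose in 1 of 5 H1, 5 of 17 H2A, 4 of 17 H2B, 2 of 12 H3 and 7 of 13 H4 members. No member fell in TE at an unadjusted p under 0.05 (0 by edgeR and 0 by DESeq2). TE is computed from the RNA values above, so a lower RNA with like footprints is by itself a higher TE. Some other lists also had higher TE, and some had lower TE. Among 11 histone genes that do not depend on replication, TE rose in 3 and fell in none, with a median of 0.31. It rose in 4 of 8 Sertoli markers (median 0.83) and 3 of 5 erythroid markers (median 0.99), counts that ran from 2 to 5 and from 0 to 4 without each library in turn. Among spermatogonia markers 2 of 12 rose, with a median of 0.61 and 11 estimates above 0. The 5 testis histones outside the rule had a median of 0.86, with 2 higher and 1 lower. TE also rose in 2 of 6 Leydig and 1 of 5 peritubular myoid markers. It fell in 3 of 8 meiotic prophase markers (median −0.47) and 6 of 7 late spermatid markers (median −2.35). It also fell in 1 of 5 macrophage markers (median −0.44) and 1 of 4 endothelial markers (median −0.35). None of these last 4 lists had a marker with higher TE. The part of cell makeup in the TE result was not tested. The mark Up stood beside 50 members in the authors' deposited table, UnChange beside 5 and Unknown beside 9. The share of all genes with each mark was not counted, so the 50 cannot be set against a background. Up was also given at small changes, such as a log2 change of 0.303 for Hist1h2bq.

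This count also moved with single libraries, to 35 without WT RPF library 1, 10 without null RPF library 2, 6 without either WT RNA library, and 4 and 5 without null RNA libraries 1 and 2. Increases of Hist1h4d, Hist1h4k, Hist2h2ab and Hist2h3c2 held in each of these fits. Without TMM scaling 8 members rose, and the median TE change over all genes was then −0.099. With the length trend removed 7 rose.

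Hist1h4k carried 731 and 907 CPM in null RPF, against 1169 and 934 CPM in WT RPF (log2 change −0.36 ± 0.14, edgeR adjusted p = 0.101), beside the RNA decrease given above. Without WT RPF library 2 its footprint decrease passed the test, at −0.51 (edgeR adjusted p = 0.0154). Its TE rose by 1.56 ± 0.21 on the log2 scale (edgeR adjusted p = 0.00296). Hist1h4d had 47.1 and 48.6 CPM in null RPF, against 87.8 and 71.3 CPM in WT RPF, and its TE rose by 1.17 ± 0.17 (edgeR adjusted p = 0.00402). In both genes the footprints were lower by less than the RNA.

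The largest TE increases among called members were those of Hist2h2ab at 3.23 ± 0.48, Hist2h3c2 at 2.70 ± 0.41 and Hist1h2bl at 2.05 ± 0.37 on the log2 scale (edgeR adjusted p = 0.00435, 0.00491 and 0.0093). Each rested on few counts in 1 assay. Null RNA held 18 and 13 counts of Hist2h2ab and 31 and 32 of Hist1h2bl, and WT RPF held 23 and 12 of Hist2h3c2. In WT, Hist1h2bl gave 1.28% of the H2B sum in RNA and 22.9% in RPF. The part of fragments shared between copies was not tested. Hist1h2bl had 226 and 175 CPM in null RPF, against 129 and 201 CPM in WT RPF, so its footprints overlapped between genotypes (RPF log2 change 0.28 ± 0.20, edgeR adjusted p = 0.348). Without WT RPF library 2 that change was 0.64 and passed the test (edgeR adjusted p = 0.00928), and without WT RPF library 1 it was 0.02. Its TE call was lost without null RNA library 1 or WT RNA library 1, with adjusted p of 0.0631 and 0.0604. Hist3h2a had 524 and 509 CPM in null RPF, against 566 and 573 CPM in WT RPF, and its TE rose by 0.73 ± 0.11 (edgeR adjusted p = 0.00537). That call was lost without either null RNA library, with adjusted p of 0.0515 and 0.0595.

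The footprint changes of 3 other abundant members passed no test with all 8 libraries and turned on the WT RPF libraries. Hist2h2aa2 had 506 and 403 CPM in null RPF, against 290 and 485 CPM in WT RPF (RPF log2 change 0.23 ± 0.21, edgeR adjusted p = 0.472). Hist1h3h had 32.3 and 44.1 CPM in null RPF, against 56.1 and 32.8 CPM in WT RPF (RPF log2 change −0.21 ± 0.23, edgeR adjusted p = 0.551). Hist1h2bm had 34.3 and 53.0 CPM in null RPF, against 95.6 and 41.4 CPM in WT RPF (RPF log2 change −0.64 ± 0.34, edgeR adjusted p = 0.212). In all 3 genes the genotypes overlapped, and the WT RPF libraries lay farther apart than the genotype means. Without WT RPF library 2 all 3 passed the test, with Hist2h2aa2 at 0.65, Hist1h3h at −0.53 and Hist1h2bm at −1.11 (edgeR adjusted p = 0.00448, 0.0274 and 0.00212). Without WT RPF library 1 none did, and the signs turned to −0.06, 0.28 and 0.13.

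The TE of Hist1h3h rose by 1.22 ± 0.34 on the log2 scale (edgeR adjusted p = 0.046), a call lost without any one RNA library or null RPF library 2, with adjusted p of 0.131 to 0.15. The TE change of Hist2h2aa2 was 1.03 ± 0.30 and missed the threshold (edgeR adjusted p = 0.0546), but it passed without WT RPF library 1 at 0.67 and without WT RPF library 2 at 1.45 (edgeR adjusted p = 0.0188 and 0.000384). For Hist1h2bm the TE change was 0.82 ± 0.49 (edgeR adjusted p = 0.298), and it passed at 1.53 without WT RPF library 1 (edgeR adjusted p = 0.00726).

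As a level per length, TE was the ratio of the authors' deposited FPKM values, RPF over RNA, with each histone type summed. It was 3.41 ± 0.734 in null and 2.26 ± 0.44 in WT for H1 (SD, n = 2 each), and 3.15 ± 0.45 in null and 1.80 ± 0.414 in WT for H4. H2B was at 2.42 ± 0.414 in null and 1.33 ± 0.173 in WT. H2A was at 1.97 ± 0.065 in null and 1.14 ± 0.0548 in WT. H3 had the lowest level, 1.0 ± 0.313 in null and 0.63 ± 0.187 in WT. These ratios of sums weigh abundant members most and are not like a median over genes. The median of single-gene ratios was 1.18 in null and 1.26 in WT over all genes. Over the 64 members that median was 1.48 in null and 0.906 in WT, so in WT it was below that of all genes. Whether the RNA libraries selected poly(A) RNA is not given in the sources used here, and histone RNA without such a tail would be measured differently then, so the level itself cannot be read as ribosome load alone.

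**Figure D4:**
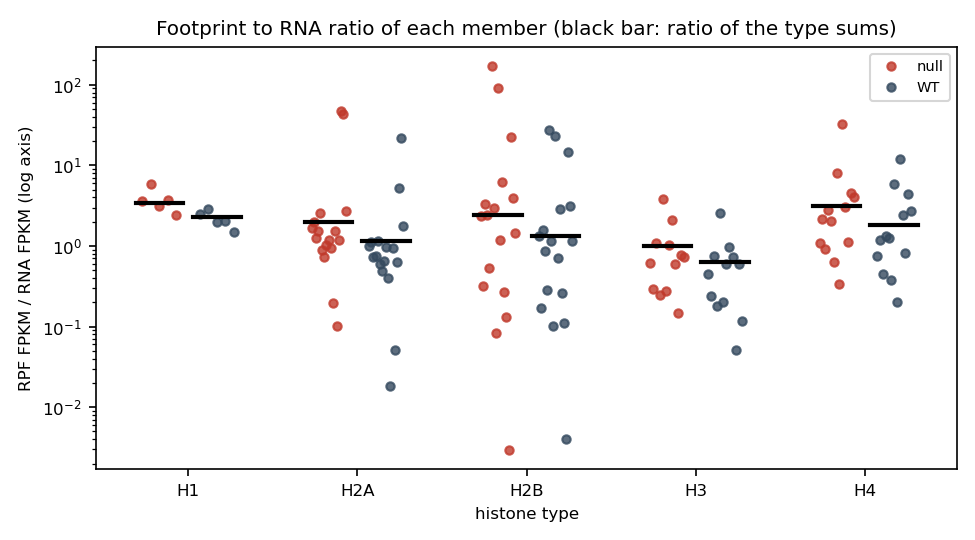
Footprint to RNA ratio of each member, RPF FPKM over RNA FPKM on a log axis, by histone type, with null left of WT. Points are members and black bars are the ratios of the type sums. Bars lie higher in null for all 5 types, and single members spread over several powers of 10.

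Single members spread far more than the types did. Across members the ratio ran from 0.00295 to 170 in null and from 0.00407 to 27.6 in WT. Hist1h2bh was at the top with 170 ± 98.8 in null and 27.6 ± 20.4 in WT (SD, n = 2 each), and Hist1h2br at the bottom with 0.00295 ± 0.00417 in null and 0.00407 ± 0.00153 in WT. Hist1h2br had 172 and 160 counts in null RNA and 377 and 310 in WT RNA, but 0 and 2 footprint counts in null and 3 and 1 in WT. Both are H2B genes, named after their values were seen. RNA inserts averaged 244.5 to 287.6 bases and footprints 28.5 bases, and the part of fragment length in this spread was not tested.

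The histone genes left out by the rule are made in testis. Hist1h1t, the testis linker histone, had 432 and 436 CPM in null RNA, against 572 and 586 CPM in WT RNA, and fell by 0.41 ± 0.09 on the log2 scale (edgeR adjusted p = 0.00751). That call was lost without null RNA library 1, null RNA library 2 or WT RNA library 2, with adjusted p of 0.0533 to 0.0817. Its footprints rose by 0.44 ± 0.09 (edgeR adjusted p = 0.00757), with 1123 and 1255 CPM in null RPF, against 911 and 840 CPM in WT RPF. Hist1h2aa, the testis H2A gene, fell by 1.74 ± 0.12 in RNA (edgeR adjusted p = 2.33e-05), close to the members. Its RPF log2 change was −0.09 ± 0.11 (edgeR adjusted p = 0.607), and its TE rose by 1.65 ± 0.17 (edgeR adjusted p = 0.000834). Hist1h2ba, the testis H2B gene, had 493 and 516 CPM in null RNA, against 878 and 796 CPM in WT RNA, and did not pass the test (log2 change −0.73 ± 0.34, edgeR adjusted p = 0.124). Its RNA estimate was also −0.73 without null RPF library 1 or WT RPF library 2. The SE of that estimate carries the spread of its RPF libraries as well. These had 1021 and 1974 CPM in null RPF, against 1554 and 823 CPM in WT RPF. H1fnt and Hils1, linker histones of spermatids, fell by 1.95 ± 0.10 and 1.60 ± 0.12 in RNA (edgeR adjusted p = 6.31e-06 and 4.12e-05) and by 2.41 ± 0.11 and 3.58 ± 0.14 in RPF (edgeR adjusted p = 1.25e-06 and 5.93e-07).

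Of 11 histone genes that do not depend on replication, 5 fell and 1 rose in RNA (edgeR, adjusted p under 0.05), against 20.8% and 16.5% of all genes, with a median of −0.56 on the log2 scale, and between 3 and 6 fell without each library in turn. H2afj and H2afx, an H2A variant and the H2A.X of the DNA damage response, fell by 1.38 ± 0.17 and 1.34 ± 0.19 (edgeR adjusted p = 0.000409 and 0.00102). H2afx is known to make a stem-loop mRNA as well as a polyadenylated one. The TE of H2afj and H2afx rose by 1.55 ± 0.23 and 1.13 ± 0.27 (edgeR adjusted p = 0.00429 and 0.0279). Their RPF log2 changes were 0.17 ± 0.16 and −0.21 ± 0.19 and did not pass the test. The TE call of H2afx did not hold without any one RNA library or null RPF library 2. H2afy2, a macroH2A gene, rose by 0.93 ± 0.16 (edgeR adjusted p = 0.00275). In footprints H2afy2 alone passed the test, with a rise of 0.51 ± 0.14 (edgeR adjusted p = 0.03) that was lost without any one RNA library, null RPF library 2 or WT RPF library 1, with adjusted p of 0.0564 to 0.18.

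Genes of DNA replication did not move in 1 direction. Of 38, 10 fell and 6 rose in RNA, near the 20.8% and 16.5% of all genes, with a median of −0.25 on the log2 scale, and without each library in turn between 7 and 11 fell. Fen1, the flap nuclease of lagging strand synthesis, fell by 1.73 ± 0.14 (edgeR adjusted p = 4.78e-05), with 12.8 and 11.3 CPM in null RNA, against 40.2 and 39.8 CPM in WT RNA. Mcm2, a subunit of the replicative helicase, fell by 0.99 ± 0.12 (edgeR adjusted p = 0.000496). Mki67, a chromosome surface protein of cycling cells, rose by 1.14 ± 0.11 (edgeR adjusted p = 0.000131), with 193 and 200 CPM in null RNA, against 86.6 and 91.1 CPM in WT RNA. Cdc6, a loader of the helicase, rose by 0.74 ± 0.14 in RNA and 0.97 ± 0.13 in RPF (edgeR adjusted p = 0.00344 and 0.000838). Gins1, a helicase partner, fell by 0.96 ± 0.14 in RNA and 0.73 ± 0.12 in RPF (edgeR adjusted p = 0.00122 and 0.00251).

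Factors that make or destroy histone mRNA were also mixed. Of 16 tested, 5 fell and 3 rose in RNA, against 20.8% and 16.5% of all genes, with a median of −0.09 on the log2 scale, and between 0 and 5 fell without each library in turn. Slbp had 57.1 and 57.5 CPM in null RNA, against 69.8 and 74.0 CPM in WT RNA, and fell by 0.33 ± 0.09 (edgeR adjusted p = 0.0168). Its footprints were 497 and 514 CPM in null RPF, against 409 and 416 CPM in WT RPF, and rose by 0.29 ± 0.08 (edgeR adjusted p = 0.0315). The RNA call was lost without any one RNA library or null RPF library 2, with adjusted p of 0.0542 to 0.134. The footprint call was lost without any one RNA library or either null RPF library, with adjusted p of 0.058 to 0.0977. Npat, the activator of histone gene transcription at S phase entry, rose by 0.31 ± 0.10 in RNA (edgeR adjusted p = 0.0367), a call lost without any one RNA library or null RPF library 1, with adjusted p of 0.051 to 0.211. Zfp473, a zinc finger protein that helps cut the histone mRNA end, rose by 1.47 ± 0.13 (edgeR adjusted p = 7.82e-05). Ctif, a factor in translation and decay of these mRNAs, fell by 1.36 ± 0.29 (edgeR adjusted p = 0.00643, lost without null RNA library 2 or WT RNA library 1 at 0.0552 and 0.0509). Cstf2, a cleavage factor subunit, fell by 0.68 ± 0.09 in RPF (edgeR adjusted p = 0.000693).

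Histone chaperones carry new histones to DNA. Of 19, 5 fell and 2 rose in RNA, near the 20.8% and 16.5% of all genes, with a median of −0.13 on the log2 scale, and between 1 and 7 fell without each library in turn. Dnajc9, an H3 and H4 co-chaperone, fell by 1.72 ± 0.19 in RNA and 1.57 ± 0.18 in RPF (edgeR adjusted p = 0.000242 and 0.000347). Asf1b, an H3 and H4 chaperone of replication, fell by 0.63 ± 0.14 in RNA (edgeR adjusted p = 0.00782, lost without null RNA library 2 or WT RNA library 1 at 0.0684 and 0.071). Nasp, which holds soluble H3 and H4, had 5245 and 3666 CPM in null RPF, against 2119 and 3191 CPM in WT RPF, and rose by 0.75 ± 0.21 (edgeR adjusted p = 0.0306). That call was lost in 6 of the 8 fits that left out a library, with adjusted p of 0.0536 to 0.147.

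**Figure D5:**
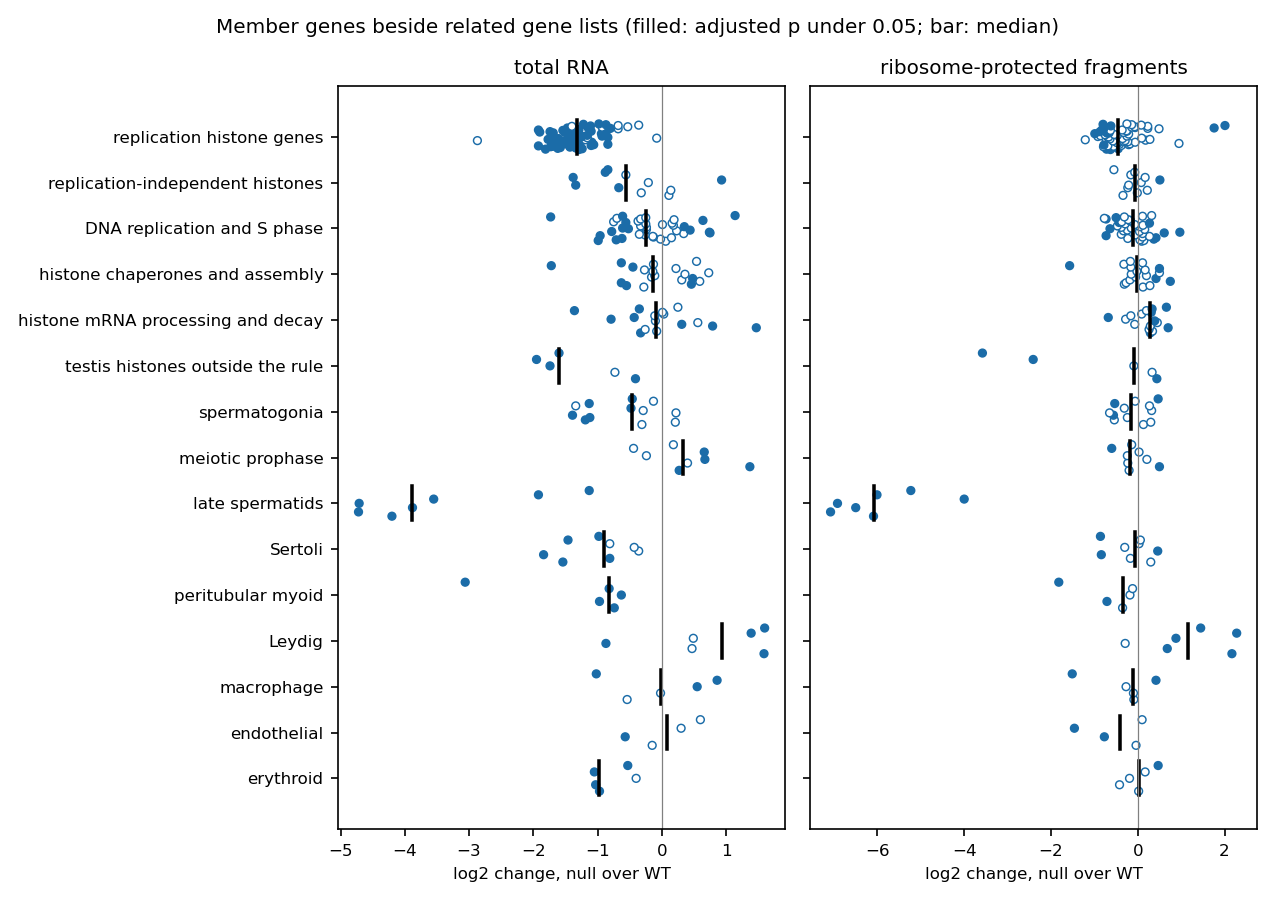
Log2 change, null over WT (x axis), in RNA and RPF for the member genes and the related and marker lists. Points are genes, filled at an adjusted p under 0.05, and black bars are medians. The member median is −1.32 in RNA and −0.45 in RPF, and the RNA medians of the other lists run from −3.88 for late spermatid markers and −1.60 for testis histones outside the rule to 0.94 for Leydig markers.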

How the data were processed

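RNA-seq and ribosome profiling libraries of null and WT testes (2 each) were taken from the authors' tables of 99671 transcripts. The deposited fragment counts are whole numbers per transcript with no normalization, per the file headers. The deposited FPKM values were made by the authors from those counts and the coding length, and the deposited TE is the ratio of the RPF to the RNA FPKM. The authors deposited the log2 of its null over WT change and a mark per gene. Tools listed in the submitters' processing notes are STAR 2.5.0a, Bowtie 1.2.2 and cutadapt 2.5, with the build GRCm38. Sources used here do not give the counter, its use of strand or any poly(A) selection, so overlapping or antisense genes may share reads.

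Counts of the highest transcript per gene were fitted in edgeR 4.0.16 (R 4.3.3) with TMM scaling over all 8 libraries, filterByExpr (count of at least 10, total of at least 15, 16051 genes kept), robust quasi-likelihood and 4 residual degrees of freedom. Contrasts were RNA, RPF and TE (the interaction), adjusted by Benjamini-Hochberg, with calls under 0.05. A change is relative to the other genes of the library. Alternatives used DESeq2 1.42.0, other scalings and filters, length offsets and left-out libraries. The steps were tested on simulated data. Counting sets the precision of low values, and 3 counts are the limit that a count of 0 allows.

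Members and lists were chosen with earlier results of these data known. The named genes were, per type, the 2 members of highest mean CPM, per contrast and direction the 3 called members with the largest change, the 3 genes left out by the rule, Piwil1, Slbp, Npat and the 2 largest called genes of each list per contrast. Daxx and Asf1a, largest in TE on the chaperone list, are only counted. Promoters are from RefSeq GRCm38.p6. Zcchc6, on the processing list, had no row of that symbol.

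The main fit did not pair libraries by replicate number. Deviations of same-numbered null and WT libraries correlated at 0.0345 in RNA and −0.709 in RPF. Those of same-numbered RNA and RPF libraries correlated at 0.00316 in null and 0.0307 in WT. With 2 libraries a group, these values cannot show whether a shared number marks a shared sample.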

Additional observations from a re-analysis of the deposited data

How the results depend on the processing

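The median RNA change of the members was −1.22 unscaled, −1.25 where TMM was run by assay or each assay was fitted alone, −1.28 with DESeq2, its size factors in edgeR or a minimum count of 50, and −0.97 with the length trend removed. In these settings 42 to 62 members fell in RNA, and without each library in turn 37 to 60 did, with a median of −1.35 to −1.25. Members lower in RPF numbered 6 with each assay alone and 6 to 36 without each library, those higher 2 to 4, and the RPF median ran from −0.62 to −0.12. Members higher in TE numbered 8 without TMM, 7 with the length trend removed, and 4 to 35 without each library, with a median of 0.62 to 1.05, and DESeq2 gave 25. With the replicate block, which grouped libraries by their number, 9 members fell in RPF and 9 rose in TE. A crossed replicate block in RPF, chosen after seeing the data, gave 44 lower and 4 higher in RPF and 53 higher in TE. Of 54 RNA calls 53 were also called with the block. Type sums in RNA were −1.19 for H1, −0.82 for H2A, −1.01 for H2B and −1.31 for H4 without TMM, −1.22 for H1, −0.85 for H2A and −1.04 for H2B with TMM within each assay, and −1.06 for H2B summed over transcripts. Without the top member, H2A was −1.04 in RNA and −0.13 in RPF.

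Without each library in turn, RNA sums ran from −1.31 to −1.27 for H1, −0.95 to −0.87 for H2A, −1.11 to −1.10 for H2B, −1.27 to −1.13 for H3 and −1.45 to −1.35 for H4, and RPF sums from −0.80 to −0.39 for H1, −0.07 to 0.03 for H2A, −0.28 to −0.02 for H2B, −0.75 to −0.09 for H3 and −0.62 to −0.32 for H4. The sign turned for these values, which passed no test with all 8 libraries. In RPF, H2A was 0.03 without WT RPF library 2, Hist2h2aa2, Hist1h2bm and Hist1h3h were −0.06, 0.13 and 0.28 without WT RPF library 1 (0.65, −1.11 and −0.53 without WT RPF library 2, where they passed the test), Hist1h2ba was −0.20 without null RPF library 2 and −0.05 without WT RPF library 2 (highest 0.90), and Hist1h2aa was 0.02 without null RPF library 1 and 0.07 without WT RPF library 1 (lowest −0.20). In TE, Hist1h3i was 0.01, 0.00, 0.20 and 0.21 without null RNA library 2, WT RNA library 1, null RPF library 1 and WT RPF library 1 (lowest −0.67). In RNA, Hist1h2bp was 0.02 without TMM and 0.25 with the length trend removed. The causes of these shifts were not tested. With 2 libraries a group, depth limits members of few counts such as Hist1h2bh and Hist1h2br.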
